A study of Petromyzon marinus and Lampetra planeri with 28 samples.

Results

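*Tead1* (XLOC_001924) and *TEAD4* (XLOC_016695) are 2 of the 72171 loci in the transcriptome assembled by the study for the sea lamprey *Petromyzon marinus*, a jawless vertebrate. They were taken by locus identifier, and both are described here through their RNA-seq counts, their assembled transcripts and the regions of accessible chromatin around them. RNA was collected from dissected dorsal neural tubes (DNT), the tissue from which the neural crest arises, at the embryonic stages T18 (3 libraries of 30 embryos each), T20 (2 libraries of 35 embryos) and T21 (3 libraries of 35 embryos). Each library pooled its embryos, no treatment or mutation is labelled, and the groups were defined by stage alone. The labels do not say whether libraries of a stage came from separate clutches, so p-values measure only the spread between these libraries. ATAC-seq, which cuts open chromatin with a transposase, was done on T20 and T21 DNTs and T23 heads of the sea lamprey (9 libraries) and of the brook lamprey *Lampetra planeri* (10 libraries). Its deposited peak sets are pooled over stages and replicates.

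TEAD proteins are transcription factors that bind DNA through a TEA domain and need a coactivator to switch genes on. Their best known coactivators are YAP1 and its relative TAZ, which the Hippo kinases keep out of the nucleus by phosphorylation. VGLL proteins bind the same surface of TEAD and can compete with YAP1. In mouse, TEAD proteins act in the neural crest through the gene *Pax3*, and growth-related genes such as *CTGF* and *CYR61* are among their classic targets.

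The libraries held between 12172421 and 91015285 counted fragments, a 7.48-fold range. *Tead1* had 3195 to 19365 fragments in each library, and *TEAD4* 191 to 1562, so *TEAD4* was measured with the lower precision of the pair. Known DNT and neural crest markers were high in the T21 libraries. *WNT1* had 3718, 3254 and 3606 normalised counts at T21, against 48.7, 19.8 and 30.6 at T18, and *SOX10* had 4243, 4089 and 4216 at T21, against 96.2, 39.6 and 78.9 at T18. *WNT1* and *SOX10* were thus low in the T18 libraries, as was *Foxd3* (10.3 to 27.5). Other markers had higher values at T18. *MSX2* (XLOC_017489) already had 1214 to 1302 normalised counts, *PAX7* 159 to 275 and *Tfap2a* 131 to 218, while the second *MSX2* locus (XLOC_020593) had only 104 to 110. In bulk tissue, fewer cells of a type and less RNA in each cell cannot be told apart.

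*Tead1* was well expressed in the DNT at every stage, with its lowest values at T18 and its highest at T21. Its normalised counts, which are counts divided by the size factor of the library, were 4072, 3746 and 3476 at T18. They were 5966 and 5949 at T20, and 7148, 6991 and 7167 at T21. No library of one stage overlapped those of another. The mean was 3765 ± 299 at T18 (SD, n = 3), 5957 ± 11.9 at T20 (SD, n = 2) and 7102 ± 96.5 at T21 (SD, n = 3). By edgeR's quasi-likelihood test over all 25317 tested loci, *Tead1* was 1.87-fold higher at T21 than at T18 (log2 fold change 0.90, SE 0.07, Benjamini-Hochberg adjusted p = 1.28e-06). In that comparison 18.9% of tested loci were called higher and 14.7% lower at T21, and in 26.9% every T21 library lay above every T18 library. The share of loci whose libraries do not overlap was not counted for the comparisons with T20. The share with every T21 library below every T18 library, and both shares among named loci, were not counted either.

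The T20 libraries already lay nearer to those of T21 than to those of T18. *Tead1* was 1.58-fold higher at T20 than at T18 (log2 fold change 0.66, SE 0.08, edgeR adjusted p = 0.00013), where 10.8% of tested loci were called higher and 6.51% lower. Between T21 and T20 the log2 fold change was 0.24 (SE 0.08), which did not pass the test (edgeR adjusted p = 0.087). In that comparison 5.40% of loci were called higher and 4.40% lower.

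*TEAD4* had fewer counts, and its libraries scattered more. It had 351, 279 and 335 normalised counts at T18, 561 and 356 at T20, and 516, 431 and 578 at T21. Every T20 and T21 library lay above every T18 library, but the T20 pair spanned a wider range than the 3 T21 libraries. The mean was 322 ± 37.6 at T18 (SD, n = 3), 458 ± 145 at T20 (SD, n = 2) and 508 ± 73.6 at T21 (SD, n = 3). *TEAD4* was 1.57-fold higher at T21 than at T18 (log2 fold change 0.65, SE 0.19, edgeR adjusted p = 0.016). The study picked out *TEAD4* and *Tead1* partly for their expression at T21, so these directions are not independent evidence. The log2 fold change was 0.51 at T20 against T18 (SE 0.21, edgeR adjusted p = 0.12) and 0.14 at T21 against T20 (SE 0.21, edgeR adjusted p = 0.74), and neither passed the test.

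The *TEAD4* call for T21 against T18 depended on single libraries. Leaving out T18 replicate 2 gave an edgeR adjusted p of 0.084 and a log2 fold change of 0.54. Leaving out T21 replicate 1 gave 0.0500, just over the threshold, and 0.65 for these quantities, and leaving out T21 replicate 3 gave 0.091 and 0.53. It was also lost with upper quartile normalisation (log2 fold change 0.50, adjusted p = 0.054), a scaling that shifted the median of all tested loci to -0.18 from -0.03. That scaling called 4051 loci higher and 5258 lower at T21, against 4792 and 3717 in the main fit. Over the 15 alternatives tried, the adjusted p ranged between 0.00051 and 0.091. At T20 the 2 libraries decided the value. The log2 fold change of T20 over T18 was 0.78 without T20 replicate 2 (edgeR adjusted p = 0.0075) and 0.11 without T20 replicate 1. For T21 over T20 it turned to -0.13 without T20 replicate 2. The *Tead1* calls for T21 against T18 and for T20 against T18 were kept under all 15 alternatives.

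**Figure D1:**
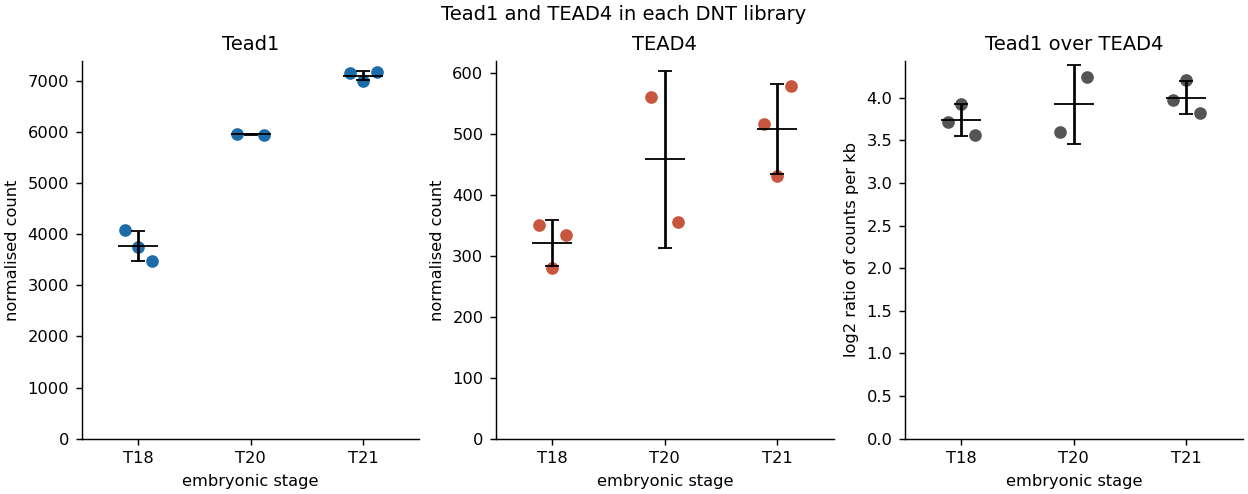
Normalised counts of *Tead1* (left) and *TEAD4* (middle) and the log2 ratio of their counts per kb (right), by embryonic stage; each dot is a library, the long bar the mean and the whisker the SD. The 3 *Tead1* stages do not overlap, whereas the T20 *TEAD4* libraries, at 561 and 356, take in most of the T21 range of 431 to 578.

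**Figure D2:**
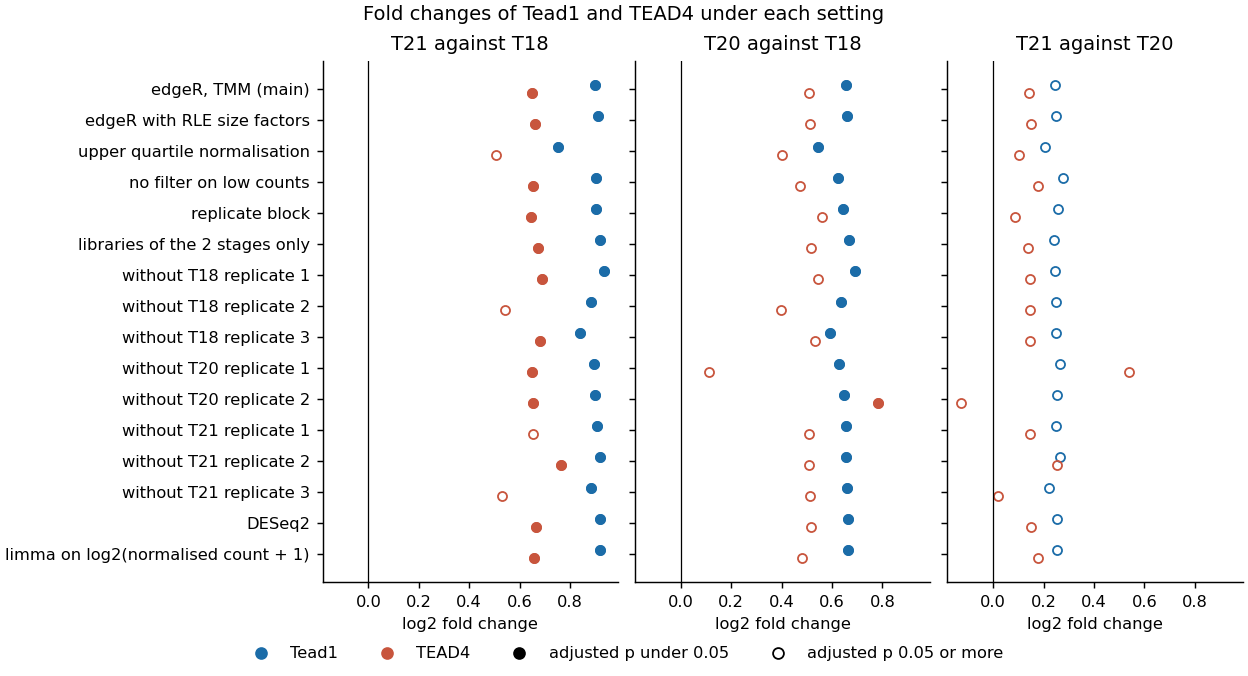
Log2 fold change (horizontal axis) of *Tead1* and *TEAD4* for the 3 stage comparisons under the main fit and 15 alternatives (rows); filled dots have an adjusted p under 0.05. *Tead1* stays between 0.75 and 0.94 for T21 against T18, and *TEAD4* between 0.50 and 0.76, with 4 open dots.

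Per kilobase of exon, *Tead1* was the dominant *TEAD* transcript of the pair in every library. At T21 it had 1136 ± 15.4 normalised counts per kb, against 71.6 ± 10.4 for *TEAD4* (SD, n = 3). At T18 the levels per kb were 602 ± 47.8 for *Tead1* and 45.3 ± 5.30 for *TEAD4* (SD, n = 3). At T21, 96.5% of tested loci had a lower mean level per kb than *Tead1*, and 58.9% a lower one than *TEAD4*. *Tead1* thus stood near the top of the tested loci and *TEAD4* near the middle. The ratio of *Tead1* to *TEAD4* per kb was 15.7, 18.4 and 14.1 in the T21 libraries, against 13.2, 15.2 and 11.8 in the T18 libraries. It was 12.1 and 19.0 at T20. These values use the length of all exons of a locus joined, 6253 bases for *Tead1* and 7097 for *TEAD4*. The longest transcripts have 5924 and 5195 bases, and with these lengths each ratio would be lower. The log2 ratio averaged 4.00 ± 0.19 at T21 and 3.74 ± 0.19 at T18 (SD, n = 3 each), and the difference of 0.26 was not resolved by a two-sided exact permutation test (p = 0.2, where 3 libraries against 3 cannot go below 0.1). A larger rise of one *TEAD* locus than of the other was therefore not shown. Reads with several mappings were counted, so a read matching both loci would be counted at both.

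Markers of other cell types moved over the same stages. All marker loci carry names from the study's lists of loci that changed or clustered on these same libraries. Among the 4719 tested loci with a name, 55.2% were called higher and 25.2% lower at T21 than at T18, so the counts of calls below are descriptions only. The summed normalised counts of 10 epidermis loci (*KRT8*, *KRT18*, *TP63* and *DSP*) ranged between 119784 and 139371 at T21, against 17705 and 21882 at T18, and 7 of the 10 rose while 2 fell. The sum for 5 loci of notochord, floor plate and endoderm (*FOXA2*, *SHH*, *SOX17* and *GATA6*) was between 35.5 and 44.4 at T21, against 867 and 1741 at T18, and 1 of them had no fragment in any T21 library. The 7 mesoderm and muscle loci (*TBX6*, *MEOX2*, *MYH1* and *DES*) summed to between 1780 and 1853 at T21, against 3741 and 4683 at T18, and 3 of the 7 fell, 1 rose and 3 were not called. Among these, the abundant *DES* locus XLOC_055111 was not called (log2 fold change 0.17, edgeR adjusted p = 0.41), and *Des* XLOC_018897 rose (log2 fold change 5.44, edgeR adjusted p = 1.70e-05). *KDR*, an endothelial gene, had 17.5 to 36.7 at T21, against 92.4 to 242 at T18. The epidermis sum was thus higher at T21, and the sums for the ventral, mesodermal and endothelial lists were lower. Most of that epidermis sum came from the *Krt8* loci XLOC_028492 and XLOC_033574, whose T21 means were 73455 and 37927. The abundant *TP63* locus XLOC_042779 was among the 2 that fell, by -0.81 on the log2 scale (edgeR adjusted p = 9.81e-05). All its T21 libraries (5052 to 5290) lay below those of T18 (8313 to 9555). The less abundant *Tp63* locus XLOC_036782 rose, by 2.49. The 7 DNT and neural crest loci summed to between 14635 and 15265 at T21, against 1734 and 1984 at T18, and all 7 rose. The 6 neural loci (*SOX1* and the *NEUROG* and *NEUROD* genes) summed to between 8545 and 8753 at T21, against 5691 and 6171 at T18. Of these, 4 were called higher and 0 lower. The abundant *SOX1* loci XLOC_048580 and XLOC_044118 (also named *Dis3*) were not called (edgeR adjusted p = 0.11 and 0.053). The *sox1* locus XLOC_047453 went from a mean of 15.8 at T18 to 1664 at T21. The T20 libraries differed in several of these sums. In replicates 1 and 2 the epidermis sum was 39363 and 83435, and the DNT and neural crest sum 7111 and 11445. The sum for notochord, floor plate and endoderm was 481 and 98.7, and *KDR* had 88.2 and 31.7. In these libraries *Tead1* was nearly equal, and *TEAD4* was the higher in replicate 1. The part of these cell types in the *Tead1* and *TEAD4* levels was not tested.

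The coactivator name *YAP1* was carried by 2 loci, of which one rose and the other did not pass the test. *Yap1* (XLOC_044209) had 241, 193 and 213 normalised counts at T21, against 35.0, 18.2 and 38.1 at T18, and rose (log2 fold change 2.78, SE 0.31, edgeR adjusted p = 1.65e-05). The more abundant *YAP1* locus (XLOC_048599) had 1039, 773 and 1353 at T21, against 2077, 1981 and 2099 at T18. All its T21 libraries lay below those of T18, but the log2 fold change of -0.96 (SE 0.34) did not pass the test (edgeR adjusted p = 0.072). Its T20 libraries had 1940 and 802, with replicate 1 the higher, as for *TEAD4*. Whether the *YAP1* loci are gene copies or pieces of one gene is not given by the names.

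Both loci named for *VGLL4*, which in mammals binds TEAD and opposes YAP1, rose. The abundant locus (XLOC_028026) had 4911, 5015 and 4977 normalised counts at T21, against 1918, 1989 and 1864 at T18 (log2 fold change 1.35, SE 0.09, edgeR adjusted p = 1.31e-07). It was also called higher at T20 against T18 and at T21 against T20. The other (XLOC_012841) had 206, 226 and 222 at T21, against 33.7, 53.7 and 58.4 at T18 (log2 fold change 2.12, SE 0.36, edgeR adjusted p = 0.00048). Neither locus had overlapping T21 and T18 libraries, and in 26.9% of all tested loci every T21 library lay above every T18 library.

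Of 3 classic TEAD targets, the matricellular genes *Ctgf* and *CYR61* rose and *ANKRD1*, an ankyrin repeat protein gene, fell. *Ctgf* had 393, 433 and 397 normalised counts at T21, against 26.2, 58.6 and 47.6 at T18 (log2 fold change 3.15, SE 0.26, edgeR adjusted p = 1.06e-06). *CYR61* had 434, 612 and 564 at T21, against 244, 202 and 204 at T18 (log2 fold change 1.30, SE 0.16, edgeR adjusted p = 3.50e-05). *ANKRD1* had 233, 207 and 211 at T21, against 543, 609 and 512 at T18 (log2 fold change -1.37, SE 0.15, edgeR adjusted p = 1.33e-05). The libraries of T21 and T18 did not overlap at any of the 3 loci. In 26.9% of all tested loci every T21 library lay above every T18 library, and the share in the direction of *ANKRD1* was not counted.

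A wider Hippo list held 43 named loci besides the *TEAD* pair, 41 of them tested, and for T21 against T18 it had 34 called higher, 4 called lower and 3 not called. Its median log2 fold change was 1.35, beside -0.03 over all tested loci. These names came from lists of loci that the study found to change or to cluster on these same libraries, so the counts do not describe the pathway as a whole. Among all 4719 tested loci with a name, 55.2% were called higher and 25.2% lower at T21. *LATS1*, *LATS2*, *STK3*, *STK4*, *SAV1*, *NF2* and *AMOT* matched no named locus and were not analysed here. The same holds for *TEAD2*, *TEAD3*, *WWTR1* (the gene of TAZ) and other symbols of the list.

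By role, 9 of 12 loci of cadherins and junction or polarity regulators rose, 2 fell and 1 was not called. *Fat4*, a giant cadherin that signals to Hippo, was present at T21 and scarcely before. Its locus XLOC_048890 had 304, 304 and 373 normalised counts at T21, against 1.25, 5.78 and 14.6 at T18 (log2 fold change 5.14, SE 0.45, edgeR adjusted p = 2.85e-06). Its locus XLOC_048889 had 72.0, 56.6 and 97.7 at T21, against 0, 0 and 0.27 at T18, too few for a fold change to be given. All 3 loci of *Dchs1*, the FAT4 ligand, rose, with log2 fold changes between 0.97 and 3.13. The loci that fell were *FRMD1* XLOC_011861, a FERM domain gene (-1.21), and *wtip*, a LIM domain gene (-1.22), while the second *FRMD1* locus rose (0.98). The single named locus of the Hippo kinases and their partners, *Map4k5*, also rose, with a log2 fold change of 0.95.

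Of the 26 target loci 24 were tested, of which 21 rose, 2 fell and 1 was not called. The largest increase was that of *IGFBP3*, which encodes a secreted IGF binding protein. It had 735, 818 and 724 normalised counts at T21, against 11.2, 7.43 and 5.95 at T18 (log2 fold change 6.65, SE 0.24, edgeR adjusted p = 1.99e-09). *AXL*, a receptor tyrosine kinase gene, had a log2 fold change of 1.26. The name *CRIM1* was carried by 5 separate loci and *DLC1* by another 5, so these genes weigh more than once. *Arhgef17* had the largest decrease after *ANKRD1* (-1.22, SE 0.31, edgeR adjusted p = 0.0079). *ANKRD1* aside, it was the only target that fell.

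At T20 against T18, 15 of the 41 tested loci were called higher and 1 lower, and at T21 against T20 14 were called higher and 3 lower. Among named loci 29.1% were called higher at T20 against T18 and 17.8% at T21 against T20, while 626 and 662 of the 4719 were called lower in these comparisons. *CYR61* had 592 and 540 normalised counts at T20 and was called higher than at T18 but not between T21 and T20. *Ctgf*, with 196 and 162 at T20, was called higher in both. *IGFBP3* had 28.4 and 22.3 at T20 and was also called higher in both.

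**Figure D3:**
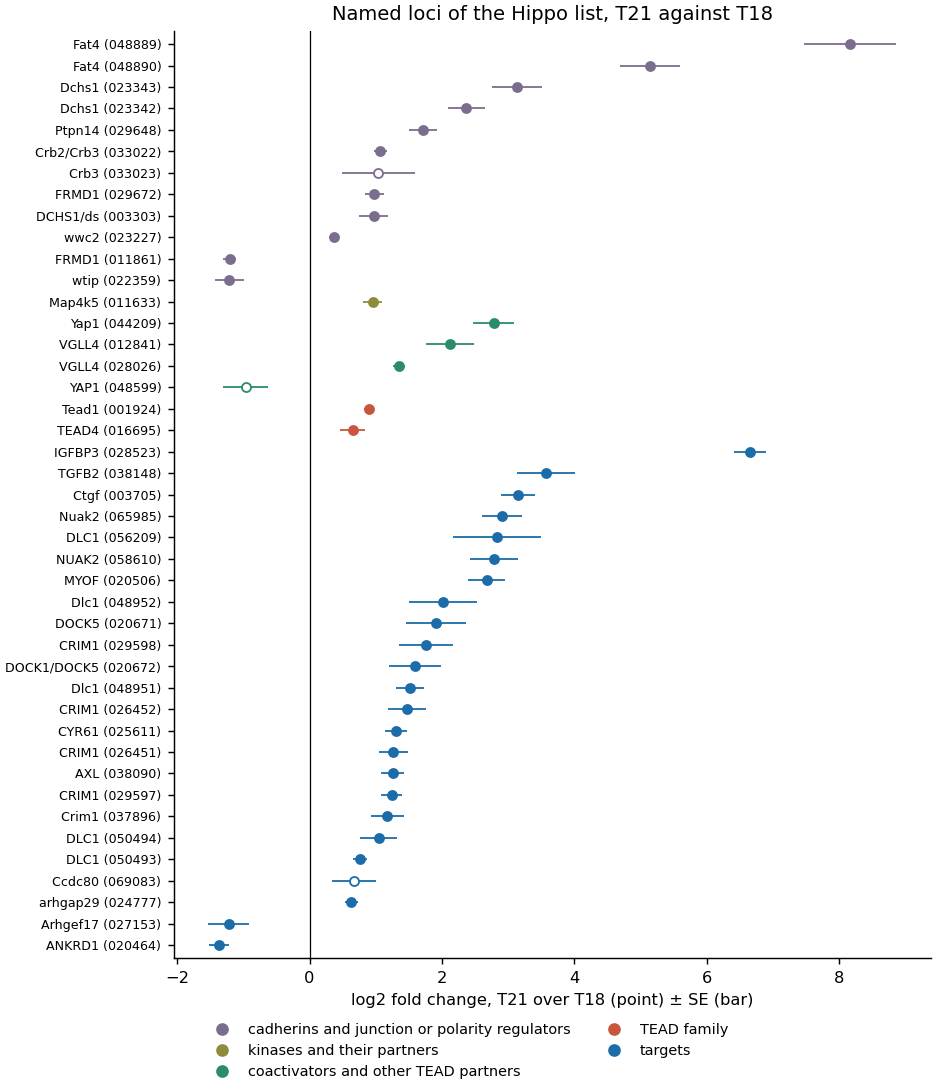
Log2 fold change of T21 over T18 (horizontal axis, bars are SE) for the 41 tested loci of the Hippo list and the *TEAD* pair, coloured by role; filled dots have an adjusted p under 0.05 and open dots do not. Of the list, 34 loci lie to the right as filled dots, and *ANKRD1*, *Arhgef17*, *FRMD1* XLOC_011861 and *wtip* to the left; the fitted value of *Fat4* XLOC_048889 rests on almost no counts at T18 and gives no size.

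Profiles across the 8 libraries were compared among the 4719 named loci by Pearson's r of log2(normalised count + 1). The r values describe these libraries, which share stage and tissue make-up. Closest to *Tead1* were *Cyfip2*, of the actin-regulating WAVE complex (r = 0.998), *Slc9a9*, an endosomal sodium-proton exchanger gene (0.998), a locus whose names include *Ppl* and *EVPL*, plakins of cornified epithelium (0.998), a retinoic acid receptor locus named *RARB* and *raraa* (0.997) and *FREM2*, an extracellular matrix gene (0.996). *Cyfip2* had mean normalised counts of 573 at T18, 1387 at T20 and 1866 at T21. Closest to *TEAD4* were *Lnx2*, a ubiquitin ligase gene (0.990), *NetA* (0.964), named after a fly netrin guidance cue, the dynein gene *DNAH5* (0.956), *slc6a9*, a glycine transporter gene (0.955), and *prtga*, a protogenin locus (0.949). All but *prtga* were low in counts at T18, with means between 8.04 normalised counts for *slc6a9* and 61.4 for *NetA*. *Tead1* and *TEAD4* correlated with r = 0.81 (Spearman's rank correlation 0.90). That left 1998 named loci closer to *Tead1* than *TEAD4* was, and 417 closer to *TEAD4* than *Tead1* was.

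The *Tead1* locus spans 97026 bases on the forward strand of scaf_00002 (19707472 to 19804497) in the sea lamprey germline genome assembly. It has 9 assembled transcripts, 17 exon blocks and a last exon of 4215 bases. Transcripts begin in 3 regions, at the locus start, from 2320 bases downstream and at 49042 bases downstream. The last of these is an 8-base exon of 1 transcript. Introns are numbered here and below as gaps between exon blocks joined over all transcripts. The longest such gap of *Tead1*, the fourth, has 32615 bases. Some transcripts skip the block after it and so have a longer intron across it. *TEAD4* spans 100543 bases on the forward strand of scaf_00014 (14305364 to 14405906), with 10 transcripts, 18 exon blocks and 7 start regions over 90817 bases. These regions include first exons of 6, 7 and 13 bases and 1 transcript of a single exon. Starts here are those of assembled transcripts, and whether they are promoters was not tested. The longest *TEAD4* gap, the second, has 44320 bases and ends at a block of 7 bases that only starts 2 transcripts. No transcript has exactly this gap as an intron, and those that cross it have a longer one.

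The *Tead1* transcripts differed in 2 pairs of small exons. One pair has 65 bases each, with ends 11922 bases apart, and the other has 63 bases each (69 in one transcript), with ends 161 bases apart. No transcript held both exons of a pair. The first 65-base exon was joined to the first 63-base exon in 4 transcripts and to the second in none. The second 65-base exon was joined to the first 63-base exon in 2 transcripts and to the second in 3. *TEAD4* had a single 65-base exon, in 6 transcripts, and the exon after it has 63 bases in 3 of these and 45 bases in the other 3. Further along, consecutive exons of 134, 174, 141 and 153 bases in *Tead1* stand beside exons of 136, 174, 141 and 151 bases in most *TEAD4* transcripts. Counts were made per locus, so the use of these exons at each stage was not analysed here. The study's assembly also drew on T20 whole heads and whole embryos, so a given transcript need not come from the DNT.

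Many loci around the pair had few or no fragments. Of 6 loci within 50 kb of *Tead1*, 3 had no fragment in any library, and of 13 around *TEAD4* 2 had none. The named gene nearest to *Tead1*, *MGAT4C*, a glycosyltransferase gene on the same strand 42185 bases upstream, had a mean of 180 normalised counts at T21 and 39.4 at T18 (log2 fold change 2.17, edgeR adjusted p = 4.92e-05). It was the only called neighbour of the 3 tested around *Tead1*, and none of the 4 tested around *TEAD4* was called by edgeR (0 at an unadjusted p under 0.05 and 0 by DESeq2). An antisense locus over the last *TEAD4* exons (XLOC_016897) had 3 fragments in all, and counting was by strand. Loci of no given strand lie inside a *Tead1* intron (XLOC_002951) and inside the fifth *TEAD4* intron (XLOC_017354 and XLOC_017355), with 445, 444 and 176 fragments in all.

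Accessible chromatin around *Tead1* comprised 33 sea lamprey peaks in the locus and within 50 kb, of 236315 in the whole set, and 66 brook lamprey peaks of 314377. *TEAD4* had 52 sea lamprey and 72 brook lamprey peaks. Brook lamprey reads were mapped to the sea lamprey genome, which allows peaks of both species to be compared by position. Reads that differ too much from that genome would be lost, so a missing brook lamprey peak need not mean closed chromatin. The sets also differ in their numbers of libraries and peaks, which was not adjusted for. Within the loci themselves *Tead1* had 19 sea lamprey peaks and *TEAD4* 23, beside a median of 20 over 1066 spliced loci whose span is within 25% of 100 kb. In the brook lamprey the numbers were 34 and 42, beside a median of 29, and 97.0% of those loci had fewer peaks than *TEAD4*.

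Introns held more peaks than any other class of position, but the classes differ in length and the counts are not scaled to it. Per 10 kb, the *TEAD4* locus alone held 2.29 sea lamprey peaks and its whole window 2.59. For *Tead1* these values were 1.96 and 1.67. Of the *Tead1* sea lamprey peaks, 17 lay in introns, 7 of them in the fourth, 8 upstream, 5 downstream, 2 near a transcript start (1000 bases before to 100 after) and 1 on an exon. A sea lamprey peak covers the first *Tead1* start, reaching 62 bases before it and 166 after it, and lies inside a brook lamprey peak. At *TEAD4*, 23 sea lamprey peaks lay in introns, 11 of them in the second and 7 in the first, 16 upstream and 13 downstream. None lay near any of the 7 assembled *TEAD4* starts, whereas 4 brook lamprey peaks did. The sea lamprey peak closest to the first start has 1211 bases and ends 1186 bases before it. A brook lamprey peak covers that start, and its 199 bases are the smallest width among the peaks around *TEAD4*. The widest sea lamprey peak of the pair's surroundings, of 1584 bases, lies in the second *TEAD4* intron.

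A share of the peaks at both loci was common to both species. Of the sea lamprey peaks, 17 of 33 at *Tead1* (51.5%) and 28 of 52 at *TEAD4* (53.8%) overlapped a brook lamprey peak by at least 1 base, beside 39.1% of the whole set. Counted on the brook lamprey peaks, 17 of 66 (25.8%) and 33 of 72 (45.8%) overlapped a sea lamprey peak, beside 29.9% of the whole set. In this direction *TEAD4* lay above the whole set and *Tead1* slightly below it. Inside the loci alone, 13 of 19 sea lamprey peaks at *Tead1* (68.4%) and 14 of 23 at *TEAD4* (60.9%) were shared. Where both peaks had to overlap by at least 50%, 12 of 33 at *Tead1* (36.4%) and 17 of 52 at *TEAD4* (32.7%) remained, beside 22.2% of the whole set. Over the whole windows, the sea lamprey shares at both loci were thus above that of the whole set by either measure. Within 100 kb the shares by 1 base were lower, 42% at *Tead1* and 46.6% at *TEAD4*. No share was adjusted for the number of brook lamprey peaks, which inside both loci was above the median of loci of like span. Outside the loci, 3 of 8 upstream and 1 of 5 downstream sea lamprey peaks were shared by 1 base or more at *Tead1*. At *TEAD4* these were 8 of 16 and 6 of 13. The shared peaks of the fourth *Tead1* intron numbered 5 of 7, and those of the second *TEAD4* intron 8 of 11. All 3 sea lamprey peaks of the third *Tead1* intron and all 3 of the fifth *TEAD4* intron were shared. Pooled peaks hold no replicates or stages, so these shares are descriptions without a test.

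**Figure D4:**
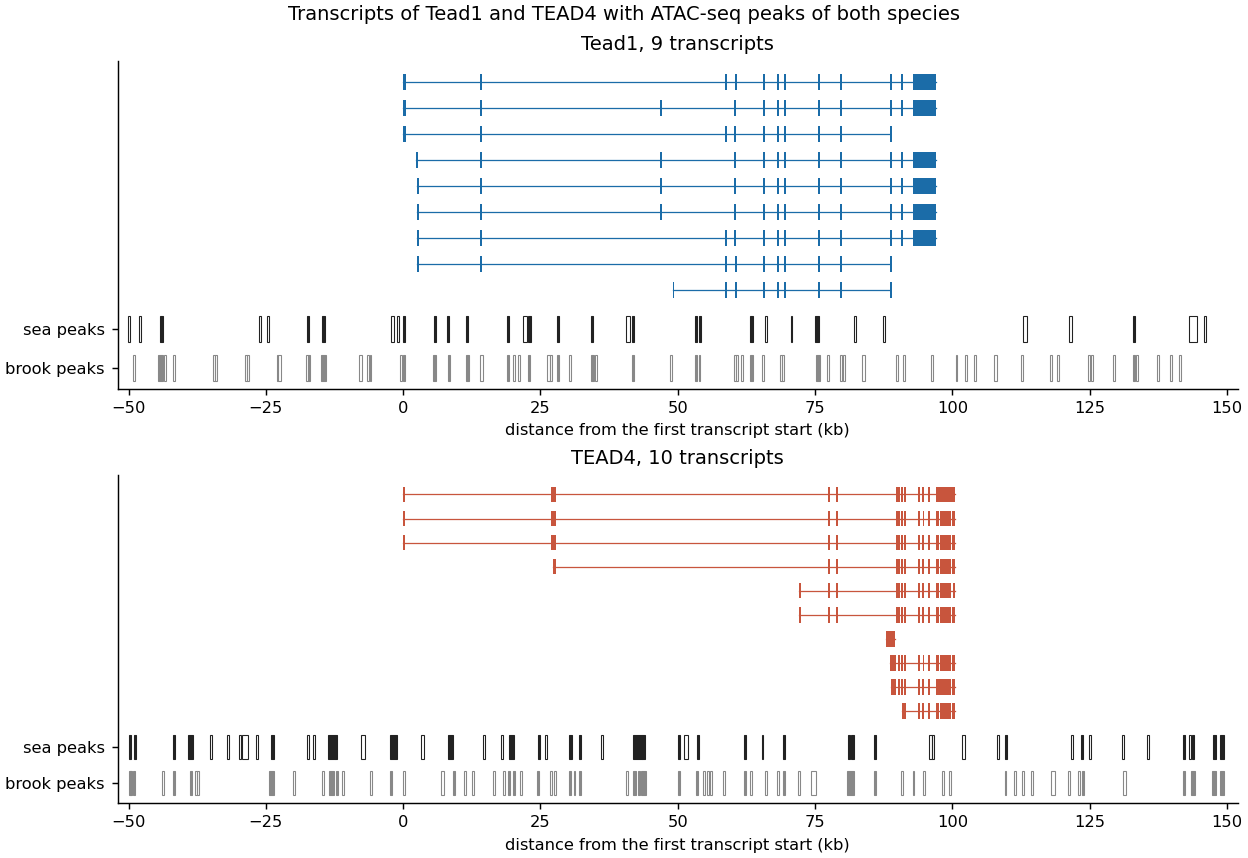
Assembled transcripts of *Tead1* (top) and *TEAD4* (bottom), drawn with exons as boxes, above the sea and brook lamprey peaks, by distance in kb from the first transcript start; filled peaks overlap a peak of the other species and open ones do not, and boxes are at least 0.35 kb wide. A sea lamprey peak stands at the first *Tead1* start and none at a *TEAD4* start, and 5 of the 7 sea lamprey peaks of the fourth *Tead1* intron are filled.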

How the data were processed

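The authors trimmed the reads with Sickle, mapped them with STAR 2.4.2, assembled transcripts with Cufflinks and counted fragments by strand with featureCounts 1.4.6-p4, including reads with several mappings. The deposited count table holds raw counts per locus. The deposited normalised table holds a signal, these counts divided by DESeq2 1.8.2 size factors. The authors mapped ATAC-seq reads with Bowtie2 and called peaks with MACS2.

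Counts of all 8 DNT libraries were tested with edgeR 4.0.16 (TMM, filterByExpr, robust quasi-likelihood fit, stage as only term) in R 4.3.3, with Benjamini-Hochberg adjusted p under 0.05 as threshold, after checks on simulated data. Alternatives used DESeq2 1.42.0, limma 3.58.1, other scalings and filters, a replicate block and fits without each library. Named genes were the members, the Hippo list by role with its coactivators, partners, classic targets and largest changes, the 5 closest profiles of each member, and neighbours within 50 kb. Names came from the study's supplementary gene lists, and names stored as dates were left out. The members and lists were chosen with earlier results of these data known. Levels in the head and whole-embryo RNA-seq libraries were not analysed here, although these libraries entered the assembly of the transcripts. No sequence was printed.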

Additional observations from a re-analysis of the deposited data

How the results depend on the processing

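Of the alternatives tried, the *Tead1* calls held throughout, with log2 fold changes between 0.84 and 0.94 for T21 against T18, between 0.59 and 0.69 for T20 against T18 and between 0.22 and 0.27 for T21 against T20 when 1 library was left out. *TEAD4* ranged between 0.53 and 0.76, between 0.11 and 0.78 and between -0.13 and 0.54 in these comparisons, and with upper quartile normalisation it was 0.50 for T21 against T18 (edgeR adjusted p = 0.054). Deviations from the stage mean correlated with r between -0.04 and 0.08 for libraries with the same replicate number. With 2 or 3 libraries in a stage such deviations are tied to each other, so these values cannot show whether the numbers mark a shared batch. A replicate block changed no call of the pair. With it *Tead1* had 0.90, 0.64 and 0.26 and *TEAD4* 0.64, 0.56 and 0.09, and 8157, 3541 and 1709 loci were called, against 8509, 4391 and 2481 without it. Loci called for T20 against T18 numbered 2821 with libraries of the 2 stages only, and ranged between 2969 and 6340 with 1 library left out. For T21 against T20 they ranged between 1255 (without T21 replicate 1) and 3978 (without T20 replicate 1), and for T21 against T18 between 6684 and 10471. Upper quartile normalisation gave 4051 loci higher and 5258 lower for T21 against T18, against 4792 and 3717 with TMM, and 2279 and 2571 for T20 against T18, against 2742 and 1649; it called 3 Hippo loci lower in T20 against T18, against 1. The T21 minus T18 difference in the log2 ratio of *Tead1* to *TEAD4* ranged between 0.16 and 0.36 with 1 library left out. Sea lamprey peaks at *Tead1* numbered 50 within 100 kb and 19 in the locus, and at *TEAD4* 23 in the locus. The share overlapping a brook lamprey peak was 68.4% in the *Tead1* locus, and 32.7% at *TEAD4* with a reciprocal overlap of 50%. By Spearman's rank correlation, ties included, 2 of the 10 closest loci stayed among the closest, and with a pseudocount of 8, 9 did; 15 loci tied at a rank correlation of 1 with *Tead1*. *TEAD4* had its lowest count, 191, in T20 replicate 2, and how far depth limits its values was not tested.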
